A study of Mus musculus with 6 samples.

Results

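The Iroquois homeobox genes Irx1, Irx2, Irx3, Irx4, Irx5 and Irx6 were followed in RNA-seq of newborn mouse osteoblasts and chondrocytes. They were taken by gene symbol, and all 6 were listed among the 23364 symbols of the table, with 7 of its 31055 transcripts. The osteoblast group held 3 libraries of Sp7-positive calvarial cells sorted for green fluorescent protein (GFP), set against 3 chondrocyte libraries of wild-type cells taken from the cartilage of the ribs. All mice were C57BL/6 at postnatal day 1. The osteoblasts were released with Liberase and the chondrocytes with Pronase and Collagenase D, so cell type, skull or rib, sorting, genotype label and enzyme all go with the group and cannot be told apart. The GFP sort keeps cells in which the Sp7 reporter is active, so the osteoblast libraries stand for that fraction of calvarial cells. Nothing in the labels says that the replicates came from separate animals, so p-values measure only the spread between these libraries.

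Irx proteins are transcription factors of the TALE class of homeodomain proteins, a class named for extra residues in the first loop of the DNA-binding domain. In mammals the genes lie in a pair of clusters, IrxA with Irx1, Irx2 and Irx4 and IrxB with Irx3, Irx5 and Irx6. They are known for roles in patterning the nervous system, in the heart and in the limb. In the skeleton, mice that lack Irx3 and Irx5 have limb defects, and mutations of human IRX5 cause a syndrome with abnormal face and skull bones.

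The RefSeq transcript models place IrxA on mouse chromosome 13 and IrxB on chromosome 8. The genes of one cluster are paired by descent with those of the other, Irx2 with Irx5, Irx1 with Irx3 and Irx4 with Irx6. Over a coding stretch of 189 bases that spans the homeobox, Irx2 and Irx5 differed at 17 bases and encoded the same residues, Irx1 and Irx3 differed at 20 bases and 1 residue, and Irx4 and Irx6 differed at 23 bases and 5 residues. Irx6 was nearer by bases to Irx3 of its own cluster (21 bases, 6 residues) than to Irx4, and had as few differing residues to Irx1 (5) as to Irx4. The stretches below are shown because they hold the longest runs that an abundant member shares with a scarce one, which bears on how reads of the scarce genes can be placed. They are coding sequence, 5′ to 3′, from the GENCODE M21 transcripts (build GRCm38), in exon 2 of Irx3 (minus strand of chromosome 8), exon 4 of Irx6 and exon 2 of Irx5 (both plus strand of chromosome 8) and exon 2 of Irx2 (plus strand of chromosome 13). Capitals mark the run shared by Irx3 and Irx6 in the first pair and by Irx5 and Irx2 in the second.

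Irx3: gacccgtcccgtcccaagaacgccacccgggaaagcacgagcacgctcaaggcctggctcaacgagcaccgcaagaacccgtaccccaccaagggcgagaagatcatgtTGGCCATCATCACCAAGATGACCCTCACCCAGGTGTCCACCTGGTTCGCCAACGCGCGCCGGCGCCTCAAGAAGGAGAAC
Irx6: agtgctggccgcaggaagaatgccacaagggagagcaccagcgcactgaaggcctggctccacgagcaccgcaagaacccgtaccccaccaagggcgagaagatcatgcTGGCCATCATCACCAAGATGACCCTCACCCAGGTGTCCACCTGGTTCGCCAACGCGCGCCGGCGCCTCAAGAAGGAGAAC
Irx5: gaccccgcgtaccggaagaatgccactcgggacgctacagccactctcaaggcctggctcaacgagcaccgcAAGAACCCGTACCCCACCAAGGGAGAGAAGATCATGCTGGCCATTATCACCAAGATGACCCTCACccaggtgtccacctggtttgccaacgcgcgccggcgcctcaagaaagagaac
Irx2: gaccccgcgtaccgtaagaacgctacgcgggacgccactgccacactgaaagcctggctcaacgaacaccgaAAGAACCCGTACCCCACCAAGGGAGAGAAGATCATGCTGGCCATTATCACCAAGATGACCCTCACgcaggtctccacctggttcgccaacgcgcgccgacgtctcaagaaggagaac

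The run shared by Irx3 and Irx6 was 88 bases long, 80 of them inside the stretch printed, and the run shared by Irx5 and Irx2 was 65 bases long. Irx3 and Irx5 shared 50 bases, and in the other pairs the longest run was 23 to 41 bases. No gene outside the family shared an exact window of 50 bases with an Irx transcript in GENCODE M21.

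Values are RPKM, the reads per kilobase of transcript and per unit of sequencing depth, added up for all transcripts of a gene. From the steps of the low values, 1 RPKM in a transcript of 2 kb was estimated to stand for 53.9 to 71.8 reads, depending on the library. The markers fitted the labels: 9 of 9 osteoblast markers were higher in osteoblasts and 8 of 8 chondrocyte markers in chondrocytes (limma, Benjamini-Hochberg adjusted p under 0.05). Only genes that reached 1 RPKM in 3 or more libraries were tested. Bglap, Dmp1, Phex, Matn1 and Matn3 did so in their own group alone, so their calls were built in. Summed over its list, the osteoblast set stood at 21990 to 23466 RPKM in osteoblasts and 2320 to 7815 RPKM in chondrocytes, and the chondrocyte set at 248 to 287 and 31149 to 55996 RPKM. Over all genes the test called many: of 11218 genes that reached 1 RPKM in 3 or more libraries, 55.5% were higher in osteoblasts and 13.5% in chondrocytes. That balance depends on scaling: under median-of-ratios scaling the calls were 3765 for osteoblasts and 3178 for chondrocytes, against 6224 and 1512 as deposited, and the median log2 difference of all tested genes moved from 0.43 to 0.06.

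Irx3 and Irx5 of the IrxB cluster were abundant in osteoblasts and scarce in chondrocytes, while Irx6 and the whole IrxA cluster stood below 1 RPKM in every library. Irx3, the most abundant member, stood at 49.2, 53.4 and 44.5 RPKM in osteoblast replicates 1 to 3 and at 0.569, 0.543 and 0.343 RPKM in chondrocyte replicates 1 to 3. The lowest osteoblast library was far above the highest chondrocyte library, as was so, at any distance, for 60.4% of all tested genes. The means were 49.0 ± 4.47 and 0.485 ± 0.124 RPKM (SD, n = 3 each), a 101-fold difference. After adding 1 and taking log2, which shrinks the change of scarce genes, the difference was 5.07 ± 0.11 (SE), with a Benjamini-Hochberg adjusted p of 2.98e-07 by limma.

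Irx5, a partner of Irx3 in limb and heart development, stood at 24.3, 21.9 and 27.5 RPKM in osteoblast replicates 1 to 3 and at 0.124, 0.383 and 0.0348 RPKM in chondrocyte replicates 1 to 3. The groups again did not overlap, but the chondrocyte libraries were uneven, with replicate 2 the highest. The means were 24.5 ± 2.80 and 0.181 ± 0.181 RPKM (SD, n = 3 each), a 136-fold difference that became 309-fold without chondrocyte replicate 2 and 96.8-fold without chondrocyte replicate 3. The log2 difference was 4.44 ± 0.14 (SE; Benjamini-Hochberg adjusted p = 9.68e-07 by limma). Both genes passed the filter on low values through the osteoblast libraries alone, so a gene of this kind had to differ, and 2 of 2 tested members cannot be read as a share of the family.

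The counts behind these values were very unequal. By the estimated read totals, Irx3 rested on 4684, 4925 and 3286 reads in the osteoblast libraries and on 52.1, 50.2 and 33.0 in the chondrocyte libraries. Irx5 rested on 2063, 1803 and 1814 reads in osteoblasts and on 10.2, 31.5 and 3.0 in chondrocytes. The fold values therefore have a well measured numerator and, for Irx5 above all, a thin denominator.

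**Figure D1:**
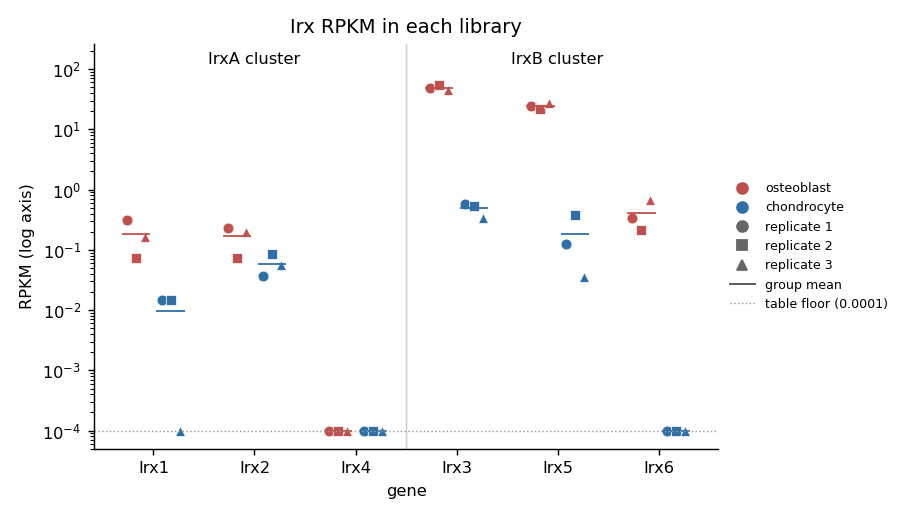
RPKM of the 6 Irx genes (log axis) in each of 3 osteoblast and 3 chondrocyte libraries, with group means as bars and the table's floor of 0.0001 as a dotted line. Irx3 and Irx5 stand at 21.9 to 53.4 RPKM in osteoblasts and below 0.6 RPKM in chondrocytes, and Irx4 is at the floor in all 6 libraries.

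Irx6, the third gene of the IrxB cluster, stood at 0.339, 0.212 and 0.668 RPKM in osteoblast replicates 1 to 3 and was listed at the floor of 0.0001 in all 3 chondrocyte libraries. It was thus far below its cluster neighbours, at 39.7, 24.0 and 60.7 estimated reads. In a fit with no filter on low values, its log2 difference was 0.48 ± 0.11 (SE; Benjamini-Hochberg adjusted p = 0.0107 by limma). In that fit 41.9% of 17940 genes were called higher in osteoblasts and 11.0% in chondrocytes.

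The reads of Irx6 have to be set beside those of Irx3. Of 2699 windows of 50 bases in the Irx3 transcript, 39 occurred exactly in Irx6, and 113 did so with up to 2 mismatches. Were reads 50 bases long and evenly spread, 67.7, 71.2 and 47.5 of the Irx3 reads in osteoblast replicates 1 to 3 would also match Irx6 exactly. Those numbers exceed the Irx6 reads in replicates 1 and 2 and fall below them in replicate 3. With up to 2 mismatches allowed they would be 196.1, 206.2 and 137.6 reads, above the Irx6 reads in all 3 replicates. Irx5 reads could match Irx6 as well: of 2401 Irx5 windows, 0 occurred exactly in Irx6 and 101 with up to 2 mismatches. Read length and the handling of reads that match more than 1 gene are not given in the sources used here, and the part of shared reads in the Irx6 value was not tested.

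Irx1, a gene of the IrxA cluster known from lung, kidney and digit development, stood at 0.308, 0.0720 and 0.162 RPKM in osteoblast replicates 1 to 3 and at 0.0145, 0.0145 and 0.0001 RPKM in chondrocyte replicates 1 to 3. The osteoblast libraries were all higher, as they were for 48.0% of genes with no filter, on 25.3, 5.7 and 10.3 estimated reads against 1.2, 1.2 and 0. No window of 50 bases in Irx3 or Irx5 occurs exactly in Irx1, but by the reckoning given for Irx6, 15.6, 16.4 and 11.0 Irx3 reads and 24.1, 21.0 and 21.2 Irx5 reads in osteoblast replicates 1 to 3 would match it with up to 2 mismatches. Their part in the Irx1 value was not tested. With no filter its log2 difference was 0.22 ± 0.07 (SE; Benjamini-Hochberg adjusted p = 0.0323 by limma). That call ended without osteoblast replicate 3 (adjusted p = 0.0754), without any 1 of the chondrocyte libraries (0.0624 to 0.0786) and with moderation without a trend (0.0655). Without osteoblast replicate 1, which held the highest value, the difference was 0.14.

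Irx2 was the other IrxA gene with reads, at 0.234, 0.0723 and 0.195 RPKM in osteoblasts and 0.0363, 0.0844 and 0.0566 RPKM in chondrocytes, replicates 1 to 3. Osteoblast replicate 2 lay below chondrocyte replicate 2, so the groups overlapped. It was not called with no filter (log2 difference 0.14 with a 95% interval of 0.01 to 0.27, limma with Benjamini-Hochberg adjusted p = 0.0702), though it was called without osteoblast replicate 2 (0.00654). Irx2 had 21.3, 6.4 and 13.8 estimated reads in osteoblasts. On the same reckoning as for Irx6, 13.7, 12.0 and 12.1 of the Irx5 reads there would also match Irx2 exactly, and 47.3, 41.3 and 41.6 with up to 2 mismatches, above the Irx2 reads in all 3 libraries. Whether such reads were counted for Irx2 was not tested. Irx4, a gene of the heart ventricle, was listed at the floor in every library and could not be tested.

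**Figure D2:**
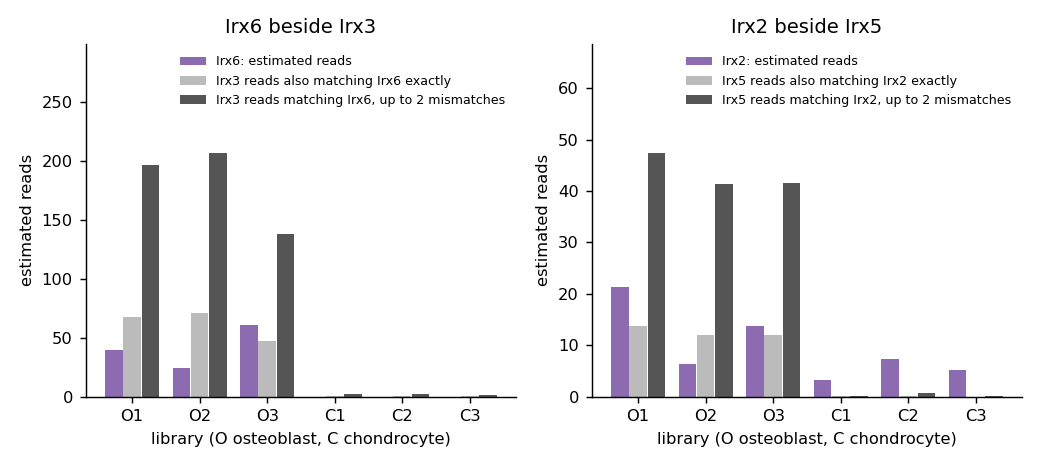
Estimated reads of Irx6 (left) and Irx2 (right) in each library. Beside them is the number of Irx3 reads (left) or Irx5 reads (right) that would match exactly or with up to 2 mismatches. Reads are taken as 50 bases long and evenly spread. In osteoblasts Irx6 has 24.0 to 60.7 reads beside 47.5 to 71.2 exact and 137.6 to 206.2 near matches, and Irx2 6.4 to 21.3 beside 12.0 to 13.7 and 41.3 to 47.3.

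Ordered by level in osteoblasts, the family ran Irx3, Irx5, Irx6, Irx1, Irx2 and Irx4. Irx3 and Irx5 did not overlap each other or any other member, while Irx6 overlapped Irx1 and Irx1 overlapped Irx2. In chondrocytes the order was Irx3, Irx5, Irx2 and Irx1, with Irx4 and Irx6 at the floor, and there the libraries of Irx3 and Irx5 overlapped, as did those of Irx5 and Irx2. The IrxB genes made up 99.3% to 99.8% of the summed Irx RPKM in the osteoblast libraries and 86.9% to 93.2% in the chondrocyte libraries. The summed level was 73.0 to 75.6 RPKM in osteoblasts, a spread narrower than that of either Irx3 or Irx5 alone, and 0.434 to 1.03 RPKM in chondrocytes.

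**Figure D3:**
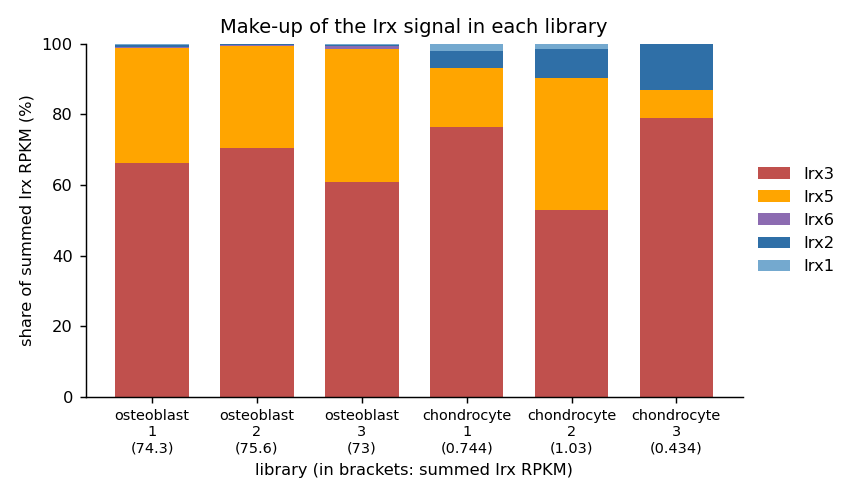
Share of the summed Irx RPKM held by each gene, in percent, for the 6 libraries, with the sum in brackets. Irx3 held 61.0% to 70.6% and Irx5 28.9% to 37.6% in osteoblasts, and Irx2 held 4.88% to 13.0% in chondrocytes, where the sums are near or below 1 RPKM.

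The ratio of Irx5 to Irx3 within a library does not depend on how libraries are scaled. It was 0.493, 0.410 and 0.617 in osteoblast replicates 1 to 3 and 0.217, 0.705 and 0.102 in chondrocyte replicates 1 to 3. The chondrocyte ratios lay on both sides of the osteoblast range. The mean log2 ratio was 1.00 higher in osteoblasts (exact two-sided permutation test, p = 0.4, where 0.1 is the smallest possible), and this value was 1.75 without chondrocyte replicate 2 and 0.35 without chondrocyte replicate 3.

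Irx5 and Irx6 were both highest in osteoblast replicate 3 and lowest in replicate 2, while Irx3 had the reverse order. Sp7, the zinc finger factor used for the sort, showed the same order as Irx5, at 115, 108 and 134 RPKM in replicates 1 to 3. So did 7 of 9 osteoblast markers, Sp7 among them, while Bglap (182, 341 and 163 RPKM) and Col1a1 (19167, 20959 and 19060 RPKM) had the order of Irx3. With 3 libraries this is given as a description only. In the chondrocyte libraries Sp7 was at 0.911, 2.31 and 1.10 RPKM, highest in replicate 2, where Irx5 was also highest. Of the other osteoblast markers, Alpl, Ibsp, Bglap and Spp1 were highest there too. Runx2, Col1a1, Dmp1 and Phex were highest in another chondrocyte replicate, as was Irx3.

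The low Irx3 and Irx5 signal of the chondrocyte libraries was of the same size, relative to osteoblasts, as that of several bone markers. The chondrocyte mean was 0.989% of the osteoblast mean for Irx3 and 0.736% for Irx5. For 9 osteoblast markers it ran from 0.138% to 25.8%, with a median of 1.06% and 1.21% for Sp7. In bulk RNA, fewer cells of a type and less RNA per cell cannot be told apart.

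Markers of some other cells also stood higher in the osteoblast libraries. The 6 myeloid markers summed to 16.0 to 19.2 RPKM in osteoblasts and 1.29 to 7.17 RPKM in chondrocytes, and the 3 fibroblast markers to 14.9 to 42.0 and 0.273 to 0.406 RPKM. The latter sum was mostly Dpt, a matrix protein of skin, at 27.3, 41.0 and 13.5 RPKM in osteoblast replicates 1 to 3, highest where Irx3 was highest. The other fibroblast markers, Clec3b (0.871, 0.717 and 0.858 RPKM) and Pi16 (0.347, 0.317 and 0.494 RPKM), were lowest in that replicate. The 8 neural markers summed to 8.11 to 10.3 and 2.23 to 3.24 RPKM, mostly Tubb3 in osteoblasts (7.29 ± 1.20 RPKM, SD, n = 3), with Sox10 and Elavl3 at 0 to 0.109 RPKM there. The 6 keratinocyte markers summed to 1.58 to 1.83 and 0.760 to 1.21 RPKM. The 5 osteoclast markers summed to 202 to 217 and 47.0 to 165 RPKM, mostly Ctsk. Other sums were higher in chondrocytes: tendon (66.0 to 95.6 and 129 to 662 RPKM), muscle (1.13 to 1.71 and 9.60 to 40.7 RPKM) and adipocyte markers (0.176 to 0.495 and 3.01 to 6.71 RPKM). Endothelial sums overlapped, at 0.604 to 2.45 and 2.44 to 5.53 RPKM. The part of such cells in the Irx3 and Irx5 values was not tested.

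Position along the body differs between the groups as well. The trunk genes Hoxa5, Hoxc6 and Hoxc8 summed to 45.6 to 71.1 RPKM in the rib chondrocytes and 0.0411 to 0.0786 RPKM in the calvarial osteoblasts. Skull or rib origin and cell type cannot be told apart in the Irx difference.

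A pair of RefSeq transcripts of Irx3 was listed separately, and the predominant one in osteoblasts was NM_008393. It stood at 47.9, 50.7 and 42.1 RPKM in osteoblast replicates 1 to 3, and NM_001253822 at 1.27, 2.77 and 2.41 RPKM, which is 2.59%, 5.18% and 5.43% of the gene. In chondrocytes the minor share was 13.1%, 0.308% and 47.9%, on 33.0 to 52.1 estimated reads for the gene, so it could not be compared. In the GENCODE models the minor transcript extends exon 2 by 14 bases, which shifts the frame and gives 522 coding residues in place of 507, and its first exon is 152 bases shorter. The junction of exons 2 and 3 is printed below, with the extra bases in capitals.

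Irx3 NM_008393: cggagagtggaacagatcgctgtagtgcct
Irx3 NM_001253822: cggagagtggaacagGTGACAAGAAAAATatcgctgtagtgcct

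The IrxB locus also holds a long non-coding RNA, Crnde (listed as 4933436C20Rik), between Irx3 and Irx5. It was chosen after its values were seen. It stood at 5.38, 4.39 and 5.51 RPKM in osteoblast replicates 1 to 3 and at 0.0718, 0.0956 and 0.0672 RPKM in chondrocyte replicates 1 to 3. Like Irx3 and Irx5 it was tested only because its osteoblast values are high, and its log2 difference of 2.49 is given with no test. In the IrxA locus, Gm20554, a non-coding RNA next to Irx2, was at 0.0566, 0.0175 and 0.0509 RPKM in osteoblasts and at most 0.00593 RPKM in chondrocytes. D730050B12Rik, between Irx2 and Irx4, was at the floor throughout.

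Genes that flank the clusters differed far less than Irx3 and Irx5. Of 7 tested genes beside IrxB, 4 were higher in osteoblasts and 2 in chondrocytes, against 55.5% and 13.5% of all tested genes, with a median log2 difference of 0.63 against 0.43 for all genes. Fto, an RNA demethylase gene whose introns are known to hold enhancers of Irx3, stood at 38.4 ± 0.841 and 24.5 ± 0.663 RPKM (SD, n = 3 each, log2 difference 0.63). Rpgrip1l, which serves the base of the primary cilium, was at 2.99 and 0.754 RPKM (1.18), and Aktip at 7.56 and 4.36 RPKM (0.69). No chondrocyte library of Rpgrip1l reached 1 RPKM (0.694 to 0.810), so only high osteoblast values could bring it into the test. Its call was thus built in, and Rpgrip1l counts in the 4 and in the median. Mmp2, a gelatinase gene on the other side of Irx6, was at 658 ± 59.2 and 391 ± 163 RPKM, with a Benjamini-Hochberg adjusted p of 0.0440 by limma. Mmp2 was no longer called when any 1 osteoblast library (0.0780 to 0.117) or chondrocyte replicate 1 (0.0624) was left out, and its log2 difference of 0.84 was 0.47 without chondrocyte replicate 2. Chd9 (-0.53) and Lpcat2 (-0.41) were higher in chondrocytes, and Rbl2 was not called (9.92 and 10.5 RPKM). Lpcat2 was not called without osteoblast replicate 1 or 3 or chondrocyte replicate 1 (adjusted p 0.110, 0.0911 and 0.0873). Median-of-ratios scaling gave 1, which was Rpgrip1l, and 3. Fto (limma, adjusted p = 0.0866), Aktip (0.0566) and Mmp2 (0.222) were not called there, and Rbl2 was higher in chondrocytes (0.00157).

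Beside IrxA, the osteoblast side was higher for 5 of 7 tested genes and the chondrocyte side for 1, with a median log2 difference of 0.74. Med10, a subunit of the Mediator complex, stood at 22.8 and 8.92 RPKM (1.27), and Ndufs6, a subunit of respiratory complex I, at 28.9 and 12.8 RPKM (1.12). Mrpl36 (1.08), Srd5a1 (0.74) and Nsun2 (0.68) were also higher there, and Lpcat1, a phospholipid acyltransferase gene, was higher in chondrocytes at 20.0 against 9.92 RPKM (-0.94). Ice1, listed as BC018507, was not called (7.57 and 7.50 RPKM), but was called higher in chondrocytes under median-of-ratios scaling (-0.38, adjusted p = 0.00578). The IrxA genes were thus near 0 in both cell types between neighbours at 1.10 to 28.9 RPKM, apart from Adamts16, which was at most 0.0895 RPKM.

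**Figure D4:**
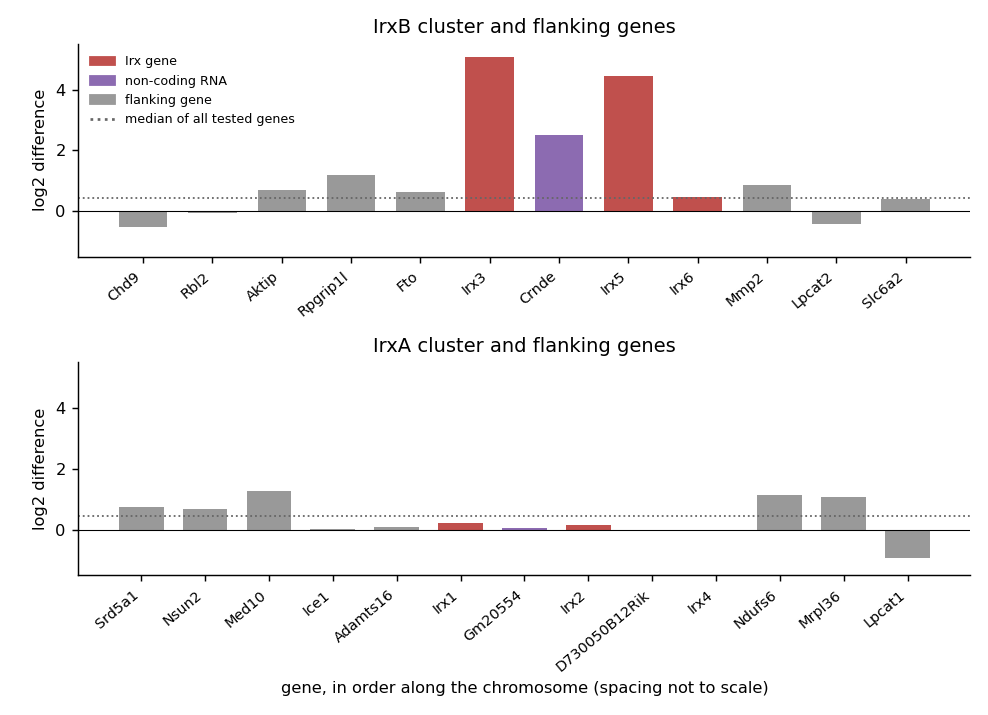
Log2(RPKM + 1) difference, osteoblast minus chondrocyte, of the Irx genes, the non-coding RNAs between them and the flanking genes, in chromosome order from the GRCm38 RefSeq table (spacing not to scale). Irx3, Crnde and Irx5 stand at 5.07, 2.49 and 4.44, and the flanking genes lie between -0.94 and 1.27, around the dotted median of all tested genes (0.43).

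Other homeobox genes of the TALE class, which include DNA-binding partners of Hox proteins, moved in both directions. Of 11 tested, 3 were higher in osteoblasts and 5 in chondrocytes, against 55.5% and 13.5% of all tested genes, and 3 were not called. Their median log2 difference was -0.45, against 0.43 for all tested genes. Meis3 had the difference nearest in size to the Irx pair. It stood at 15.7, 16.3 and 14.7 RPKM in osteoblast replicates 1 to 3 and 0.735, 0.467 and 0.907 RPKM in chondrocytes. Its log2 difference was 3.29 (SE 0.12), with a Benjamini-Hochberg adjusted p of 1.67e-06 by limma. Meis3 was tested only because its osteoblast values are high, so it too had to differ. Meis1, its close relative, lay the other way, at 1.76, 2.69 and 1.50 RPKM against 21.2, 15.7 and 19.5 RPKM (-2.74 ± 0.18, adjusted p = 1.66e-05). Pbx2 (0.82) and Mkx (0.66), a factor of tendon, were also higher in osteoblasts.

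Pknox2 (-1.35), Meis2 (-0.97) and Tgif2 (-0.52) were among those higher in chondrocytes with Meis1. Pknox2 passed the filter through the chondrocyte libraries alone, so its call was built in. Meis2 stood at 2.51 ± 0.350 and 6.02 ± 1.69 RPKM (SD, n = 3 each). Tgif1 (9.39 and 13.4 RPKM), Pbx3 (5.83 and 7.36 RPKM) and Pknox1 (3.96 and 3.22 RPKM) were not called, and Pbx4 did not pass the filter. Without chondrocyte replicate 2, which was low for most of the class, 4 were higher in osteoblasts and 7 in chondrocytes. The call of Mkx was lost without osteoblast replicate 1 or 2 or chondrocyte replicate 1 (limma, Benjamini-Hochberg adjusted p 0.0677, 0.0916 and 0.0657), and that of Tgif2 without osteoblast replicate 1 or 3 or chondrocyte replicate 1 or 3 (0.0674, 0.0837, 0.0765 and 0.0605). Median-of-ratios scaling gave 2 and 7, with Mkx not called (0.206).

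Genes known to work with Irx factors or to be controlled by them also differed in both directions. Of 8 listed, 5 were tested: 2 were higher in osteoblasts, 2 in chondrocytes and 1 was not called, against 55.5% and 13.5% of all tested genes for the directions. Gja1, the gap junction protein connexin 43 and a known target of Irx3 in the heart, stood at 86.5, 98.1 and 81.2 RPKM in osteoblasts and 14.9, 14.6 and 25.8 RPKM in chondrocytes (log2 difference 2.25, SE 0.21, with a Benjamini-Hochberg adjusted p of 0.000101 by limma). Vdr, the vitamin D receptor, was at 13.6 ± 2.71 and 3.72 ± 0.826 RPKM (1.63). Trps1, a GATA-type repressor that binds Irx5, was higher in chondrocytes at 11.9 ± 1.26 against 2.56 ± 0.299 RPKM (-1.86), as was Gli3, a hedgehog effector that interacts with Irx3 and Irx5 in the limb (11.5 against 5.60 RPKM, -0.91). Cxcl12, a chemokine gene reported as repressed by Irx5, was at 10.6, 10.6 and 6.55 RPKM in osteoblasts and 7.35, 3.09 and 18.8 RPKM in chondrocytes. Its difference of 0.19 had a 95% interval of -1.02 to 1.41, so an effect of either sign fits. Gata3, Gja5 and Kcnd2 were at most 0.126 RPKM in every library.

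Among 206 homeobox genes of the table, gathered by family name after the values were seen, Irx3 had the third highest osteoblast mean, after Prrx2 (141 RPKM) and Prrx1 (69.4 RPKM), and Irx5 the eighth. In chondrocytes the pair held ranks 60 and 70. By log2 difference Irx3 (5.07) and Prrx2 (5.07) were level at the top, followed by Alx4 (4.96), Dlx5 (4.47) and Irx5 (4.44). This order depends on the pseudocount of 1: with 0.1 the difference was 6.65 for Irx5 and 6.41 for Irx3. By the ratio of means Irx5 (136-fold) also stood above Irx3 (101-fold), and Dlx6, at 15.7 and 0.0440 RPKM, stood above both. Among all 11218 tested genes Irx3 ranked 12 and Irx5 ranked 25 on the osteoblast side.

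**Figure D5:**
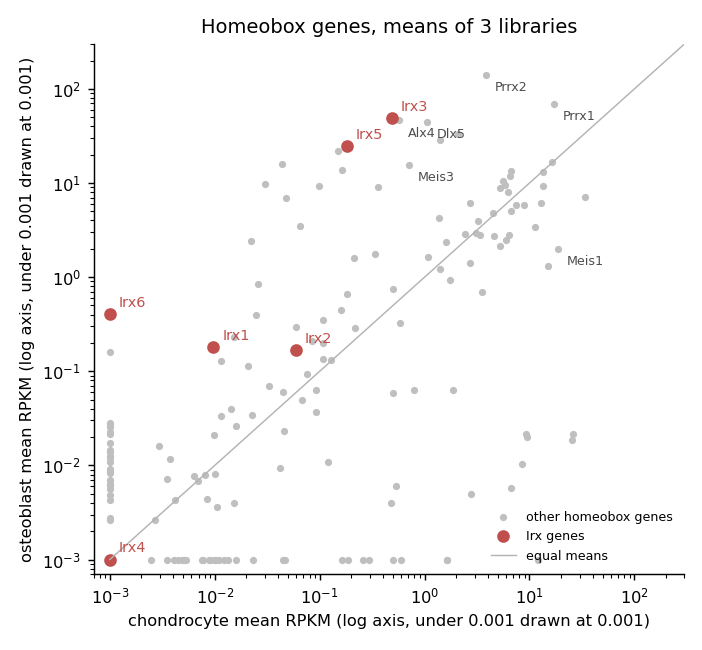
Osteoblast against chondrocyte mean RPKM (both log axes, n = 3 libraries each, values under 0.001 drawn at 0.001) of 206 homeobox genes, with the Irx genes in red and a line of equal means. Irx3 and Irx5 lie in the upper left with Alx4 and Dlx5, at 24.5 to 49.0 RPKM in osteoblasts and 0.181 to 1.06 RPKM in chondrocytes.

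The genes most like each of the pair were sought by Euclidean distance of log2(RPKM + 1) over the 6 libraries, among 11217 other tested genes. Nearest to Irx3 were Alx4 (distance 0.80), a factor of skull vault patterning, Dlx5 (0.94), a homeobox gene of bone formation, and Slit3 (0.95), a secreted guidance protein. Alx4 stood at 48.2, 42.7 and 48.3 RPKM in osteoblasts and 0.440, 0.200 and 1.06 RPKM in chondrocytes. Among the nearest to Irx5 were Car3 (0.40), a carbonic anhydrase, and Wnt10b (0.61), a Wnt ligand. Car3 stood at 21.4, 25.0 and 31.7 RPKM in osteoblasts and 0.0390, 0.194 and 0.0547 RPKM in chondrocytes. Irx3 and Irx5 were 1.84 apart, with 19 genes nearer to Irx3 than Irx5 was, mainly by the gap in level. The distance rests largely on the group means, which many genes share.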

How the data were processed

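The authors deposited one table of RPKM values per RefSeq transcript for 6 libraries, with 0.0001 added to every value. TopHat2 2.0.8 and build mm9 are named per the submitters' processing notes. The read counter, read length and treatment of multiply matching reads are not given in the sources used here. Libraries were made with a TruSeq kit with modifications, per the labels' protocols, and each column was matched to its sample by its header. For each symbol the RPKM of its transcripts were added. Genes that reached 1 RPKM in 3 or more libraries entered a two-sided limma test (limma 3.58.1, R 4.3.3) of log2(RPKM + 1), with a variance trend and robust moderation. A call is a Benjamini-Hochberg adjusted p below 0.05. Differences are osteoblast minus chondrocyte. Tested on simulated data for these 11218 genes, the fit recovered 80% of genes shifted by 1 on the log2 scale and 97% of genes shifted by 2. Of its calls 6.84% were false. Only 200 genes were shifted, all with a mean chondrocyte log2(RPKM + 1) above 1. Irx3 and Irx5 lay below that level, and far more genes differ in the real data, so the rates do not carry over to them.

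Read totals were estimated from steps of low values and GENCODE M21 transcript lengths. In each library 57.8% to 60.6% of 2661 to 2856 values under 20 reads lay within 0.05 of whole reads, where chance gives 10%. The totals were fitted to the same values, so part of this is built in. Shared windows and homeobox stretches were computed from GENCODE M21 transcripts (GRCm38), used for sequence only, and gene order and older names came from the GRCm38 RefSeq table.

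The members and gene lists were chosen with earlier results of these data known. The text names the Irx genes, up to 6 members of highest mean RPKM in each of 4 lists (TALE genes, flanks of IrxA and of IrxB, and partners and targets) with any that complete a count of 5 or fewer, and the 3 nearest genes to each tested Irx gene. Some genes that this rule takes are not reported here. Replicate numbers were not used to pair the libraries in the main fit, and whether they mark pairs is not known. Alternatives were other pseudocounts, filters, scalings, moderation and weights, a replicate block, 1 transcript per gene, and each library left out.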

Additional observations from a re-analysis of the deposited data

How the results depend on the processing

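Irx3 and Irx5 kept their direction and their call in all 17 alternatives run, with log2 differences of 3.30 to 6.41 and 2.51 to 6.65 and limma Benjamini-Hochberg adjusted p of 3.47e-10 to 1.90e-05 and 9.75e-10 to 3.68e-05. In the filtered fits both genes entered through the osteoblast libraries alone, so a kept call there was built in and adds no support. The 2 members called higher became 4 with no filter on low values, by Irx1 and Irx6. No Irx gene was called higher in chondrocytes by limma under any alternative, and at an unadjusted p under 0.05 the count was also 0. In the filtered fits this 0 was built in as well, since only Irx3 and Irx5 were tested there. The counts of all genes called higher in osteoblasts and in chondrocytes were 4092 and 885 with mean RPKM of at least 5, 3765 and 3178 under median-of-ratios scaling, 3699 and 3194 under upper-quartile scaling, and 3597 and 3456 with quantile normalization, against 6224 and 1512. Leaving out each library gave 5300 to 6319 and 1206 to 1898. Ice1 (BC018507) turned to -0.38 under median-of-ratios and upper-quartile scaling and to -0.39 with quantile normalization. The scaling itself moves every library's level there.

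Same-numbered libraries did not visibly deviate together (r of 0.0791, 0.00964 and -0.155 for replicates 1 to 3). With 3 libraries per group such values cannot show that pairing is absent. The replicate block gave 5892 and 1376 genes and log2 differences of 5.07 and 4.44 for Irx3 and Irx5, and among the named genes ended the call of Mmp2 (adjusted p = 0.0564). With the pairing by number, the Irx5 to Irx3 difference stayed at 1.00 (exact sign-flip permutation p = 0.5). Added after seeing the data were fits of Irx1, Irx2 and Irx6 with no filter under another pseudocount, scaling or moderation and without each library, in which Irx6 stayed called (0.00111 to 0.0360). Depth limits the scarce members: at 0 to 60.7 estimated reads in a library, their differences rest on few reads.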
